A study of Mus musculus with 3 samples.

Results

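Levels of mRNA were examined for 10 genes that govern the exit of mouse embryonic stem cells (mESCs) from G1 phase: the D-type cyclins Ccnd1, Ccnd2 and Ccnd3, the E-type cyclins Ccne1 and Ccne2, the CIP/KIP inhibitors Cdkn1a, Cdkn1b and Cdkn1c, and the INK4 inhibitors Cdkn2a and Cdkn2b. The genes were chosen by name, and their probes were all those whose accession maps to one of these symbols. They came to 15 of the 55681 probes on the array that were not controls, and to 10 of the 20660 genes that could be named. The cells were of the J1 line (strain 129S4/SvJae), which derives from the inner cell mass. They were grown on gelatin in Knockout Serum Replacement medium with 1000 U/mL leukemia inhibitory factor (LIF) and treated with 1 µM PD0325901 (PD) for 24 h. PD is a small molecule inhibitor of MEK, the kinase that activates ERK. Replicates 1 to 3 formed the single group, each hybridised in 1 colour to its own Agilent array on a shared slide, scanned together per the file headers. Cells without PD were not analysed here, so no effect of PD was estimated. J1 is 1 line. The study's methods describe independent experiments for each treatment, while the labels give only replicate numbers. The p-values below take spots as observations and so compare these hybridised samples, not a condition.

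In G1 phase, D-type cyclins bind the kinases CDK4 and CDK6, and E-type cyclins bind CDK2. Both kinds of complex phosphorylate the retinoblastoma protein and its relatives, the pocket proteins, which releases E2F factors and starts the genes of S phase. INK4 inhibitors bind CDK4 and CDK6, whereas CIP/KIP inhibitors bind whole cyclin-CDK complexes. ERK signalling is known as an inducer of cyclin D1 in many cell types, and mESCs are known for a short G1 phase with high cyclin E activity.

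Cdkn1a and Cdkn2a are shown by sequence because each has a pair of annotated start sites and because their probes set the 3 arrays apart in the measurements below. Each window holds the 250 bases before a start site, read 5′ to 3′ on the strand of the gene, from RefSeq promoters of build GRCm38.p6. Capitals mark GC boxes (GGGCGG, on either strand) in Cdkn1a and an E2F motif in Cdkn2a, and a window without capitals holds no match to either. The Cdkn2a window with the E2F motif also holds 2 GC boxes, which are left in lower case. The table does not tie a start site to the transcript a probe was designed for.
Cdkn1a, chr17:29090729-29090978, + strand: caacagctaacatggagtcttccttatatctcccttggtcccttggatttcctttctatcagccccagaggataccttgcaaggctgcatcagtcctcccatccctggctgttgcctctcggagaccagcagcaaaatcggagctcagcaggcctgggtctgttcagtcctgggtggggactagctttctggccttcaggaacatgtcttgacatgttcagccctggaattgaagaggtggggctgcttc
Cdkn1a, chr17:29093519-29093768, + strand: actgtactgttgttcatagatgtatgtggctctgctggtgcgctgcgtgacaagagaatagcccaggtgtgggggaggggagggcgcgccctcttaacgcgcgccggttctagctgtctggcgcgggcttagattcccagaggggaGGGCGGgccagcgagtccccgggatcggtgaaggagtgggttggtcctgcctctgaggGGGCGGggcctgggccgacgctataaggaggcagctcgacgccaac
Cdkn2a, chr4:89282193-89282442, - strand: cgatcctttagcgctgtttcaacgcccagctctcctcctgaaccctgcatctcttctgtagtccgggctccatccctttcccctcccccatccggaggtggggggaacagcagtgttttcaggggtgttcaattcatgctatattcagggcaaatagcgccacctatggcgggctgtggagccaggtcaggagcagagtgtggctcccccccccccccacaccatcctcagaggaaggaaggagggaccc
Cdkn2a, chr4:89294620-89294869, - strand: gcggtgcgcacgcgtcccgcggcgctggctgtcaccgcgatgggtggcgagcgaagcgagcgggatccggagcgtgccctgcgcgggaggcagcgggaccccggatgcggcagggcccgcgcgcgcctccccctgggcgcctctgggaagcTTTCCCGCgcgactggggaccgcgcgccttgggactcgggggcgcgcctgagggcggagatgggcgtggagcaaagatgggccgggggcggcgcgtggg

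The table held 9 windows for 6 of the 10 members (Ccnd3, Ccne1, Cdkn1a, Cdkn1b, Cdkn2a and Cdkn2b). GC boxes, the site of Sp1-type factors, occurred in 6 of these 9 windows and in 32.7% of all 32851 windows of the same length. The E2F motif was searched as TTTCCCGC, TTTGGCGC, TTTCGCGC or TTTGCCGC on both strands. It occurred in 1 of 9 member windows, 99 bases before the upstream start of Cdkn2a as TTTCCCGC, and in 1.86% of all windows. CCAAT occurred in 2 member windows (33.8% of all) and TATAAA in 0 (12.4% of all). The p53 response element, searched as a pair of adjacent half-sites with no mismatch, was found in 0 member windows and in 3 of all 32851. A search that allowed 1 mismatch outside the C and G of each half-site was run after the strict one had found no member window. It matched 1 of the 9 member windows, that of the upstream Cdkn1a start, and 19 of all 32851, and since the tolerance was set after that result the match is given as a description only. GC content ran from 53.6% to 78.4% in the member windows, against a median of 52.4% over all. A match is a description of the letters in the window, and the absence of one says only that these letters are not there.

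The measured quantity was the processed signal of a spot, a brightness in arbitrary units after the scanner software had subtracted background. Its 75th percentile over probes was 551, 511 and 527 on replicates 1, 2 and 3, and the lowest signal flagged well above background was between 10.1 and 11.4. The level of a probe is the log2 of its signal minus the log2 of that percentile, and a probe at the percentile itself has a level of 0. How brightly a probe reads also depends on its sequence, and levels were therefore not compared between genes. Non-uniform spots numbered 25, 187 and 8 on the 3 arrays. On replicate 2 they gathered in 6 of 48 parts of the array (at least 10 such spots each), called marked parts here, and no spot was saturated on any array.

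All 15 member probes, and so all 10 genes, passed the flag for well above background on each of the 3 arrays. Over the whole array, 60.3% of probes and 72.8% of named genes did. With the signal required above the 99th percentile of the negative controls instead, the calls on Ccne2 and on Cdkn2b A_55_P1979526 were lost. That left 13 probes and 9 genes. The limit was 16.7, 61.2 and 14.5 on replicates 1, 2 and 3, and both lost probes fell below it on replicate 2 only. The markers of the labelled cell type were present: all 8 mESC markers were detected, among them Pou5f1 and Nanog, with a summed signal between 111348 and 117654. Single markers were less even than their sum: Pou5f1 read 11265, 16872 and 10239 on replicates 1, 2 and 3, and Sox2 read 6453, 4835 and 6827. Of other cell types, 3 of 6 fibroblast markers were detected on all arrays (summed signal 1228 to 1348, Lum and Postn on no array). All 4 primitive endoderm markers were detected (315 to 327), of which Dab2 read 62.4, 89.5 and 61.5. Of the trophoblast markers, 2 of 4 were (529 to 633, Cdx2 and Elf5 on no array), and of the mesoderm markers 1 of 4 (125 to 141, Mixl1 on no array). Among these detected markers, Sox17 (52.2 by its brighter probe) and Krt7 (27.6) lay below the negative-control limit of 61.2 on replicate 2. The part of other cells in the member signals was not tested. Fewer cells of a type and less RNA per cell cannot be told apart in bulk samples.

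**Figure D1:**
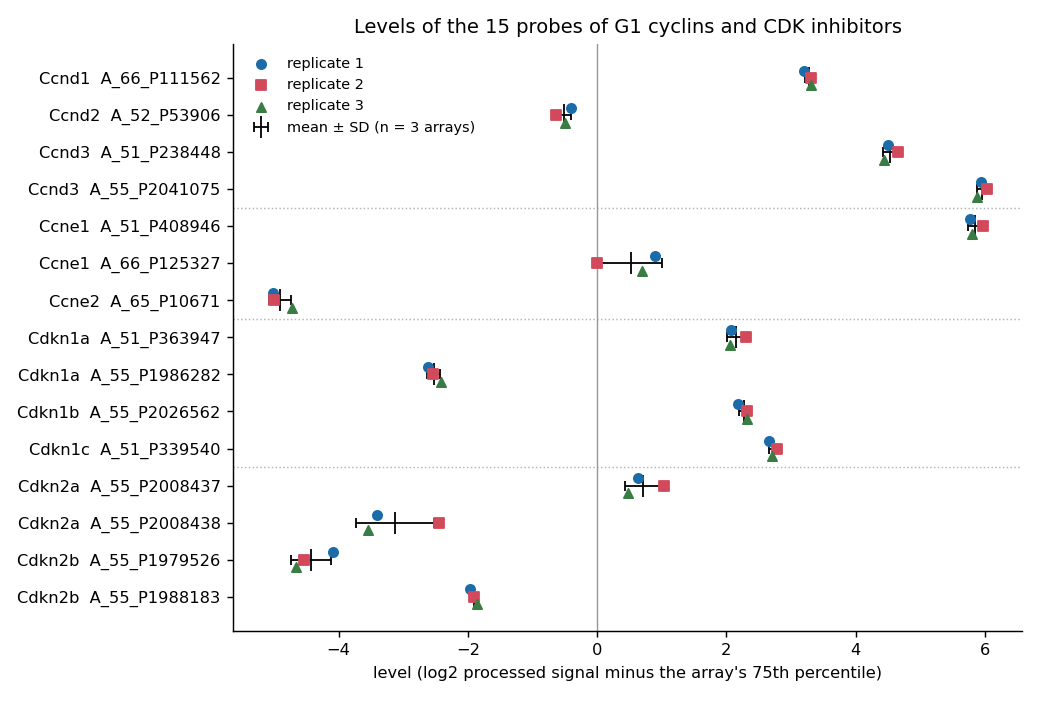
Level of each member probe on the log2 scale (x axis) for replicates 1 to 3 (points), with the mean ± SD over the 3 arrays (bars). Dotted lines part D-type cyclins, E-type cyclins, CIP/KIP and INK4 inhibitors; the probes run from a mean of -4.91 (Ccne2) to 5.95 (Ccnd3), and the points of Ccne1 A_66_P125327 and Cdkn2a A_55_P2008438 lie farthest apart.

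All 3 D-type cyclins gave clear signals. The probe of Ccnd1 (cyclin D1) read 5063, 5046 and 5231 on replicates 1, 2 and 3, a level of 3.27 ± 0.06 (SD, n = 3). The lowest and highest array differed by 0.11 log2 units. Ccnd2 (cyclin D2) read 415, 328 and 372, a level of -0.52 ± 0.12 (SD, n = 3), with replicate 2 the lowest. Ccnd3 (cyclin D3) was read by a probe for each of 2 RefSeq transcripts. The probe for NM_007632 gave 12427, 12930 and 11424, a level of 4.53 ± 0.11 (SD, n = 3). The probe for NM_001081636 gave 33952, 33320 and 31097, a level of 5.95 ± 0.07 (SD, n = 3). After scaling, both were highest on replicate 2 and lowest on replicate 3, under each of the 6 ways of scaling or background correction tried. For these 4 probes no pair of arrays was apart by more than the error that the scanner software gives to a spot, which was 10% to 17.4% of the signal over the member probes.

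Signals of the E-type cyclin probes ran from 16.1 to 32221. The probe A_51_P408946 of Ccne1 (cyclin E1) read 30097, 32221 and 29216, a level of 5.85 ± 0.11 (SD, n = 3), and the 3 arrays overlapped within the software error. The other Ccne1 probe, A_66_P125327, names the same transcript (NM_007633) and read 1025, 513 and 852. Its level was 0.90, 0.01 and 0.69, with a mean of 0.53 ± 0.47 (SD, n = 3), and replicate 2 lay apart from both other arrays. On replicate 2, A_66_P125327 lay 0.53 below its own mean. A_51_P408946 lay 0.13 above its own there, a departure within which its arrays still overlapped. The low reading of A_66_P125327 fell in a marked part of replicate 2 that held 18 non-uniform spots, although its own spot was not flagged, and the part this played was not tested. Ccne2 (cyclin E2) was near the detection limit, with signals of 17.1, 16.1 and 20.1 and a level of -4.91 ± 0.17 (SD, n = 3). It did not pass the rule against negative controls, falling below the limit on replicate 2 only. Its lowest signal was 1.41 times the lowest well-above-background signal of the same array.

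The single-spot probes of the CIP/KIP inhibitors overlapped between all 3 arrays within the software error. Cdkn1b (p27) read 2507, 2555 and 2626, a level of 2.28 ± 0.08 (SD, n = 3). Cdkn1c (p57), an imprinted gene, read 3484, 3514 and 3444, a level of 2.72 ± 0.06 (SD, n = 3). Its 3 arrays were alike although its spot on replicate 2 lay in a marked part with 24 non-uniform spots. Cdkn1a (p21), a well-known target of p53, had a probe for NM_001111099 that read 89.6, 88.2 and 98.6, a level of -2.52 ± 0.10 (SD, n = 3).

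The other Cdkn1a probe, for NM_007669, was printed in 10 spots per array, so that the arrays could be compared with an error of their own. On replicate 1 its spots ran from 2250 through a median of 2317 to 2423. On replicate 2, with 2 outlier spots left out, they ran from 1987 through 2594 to 2684, and on replicate 3 from 2100 through 2212 to 2317. The level was 2.07, 2.30 and 2.06, so replicate 2 was the high array, although 1 of its 8 spots lay below every spot of the other arrays. The moderated F test of limma, with Benjamini-Hochberg adjustment over the 284 detected probes with 10 spots, gave an adjusted p of 1.33e-05. Such a call was not rare: 115 of the 284 probes (40.5%) passed the threshold of 0.05. Replicate 2 exceeded replicate 1 by 0.22 ± 0.04 log2 units (SE, limma, adjusted p = 4.38e-05). Replicates 1 and 3 differed by -0.01 ± 0.04 (SE, limma, adjusted p = 0.915). Across the alternatives that kept replicate 2, it lay 0.16 to 0.28 above the others and the adjusted p of limma lay between 1.35e-10 and 0.015. Of the spots of this probe, 2 lay in marked parts of replicate 2. The single-spot probe of the other Cdkn1a transcript was highest on replicate 3, with a range of 0.20. Its arrays overlapped within the software error, so it could not show whether that transcript shared the order.

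**Figure D2:**
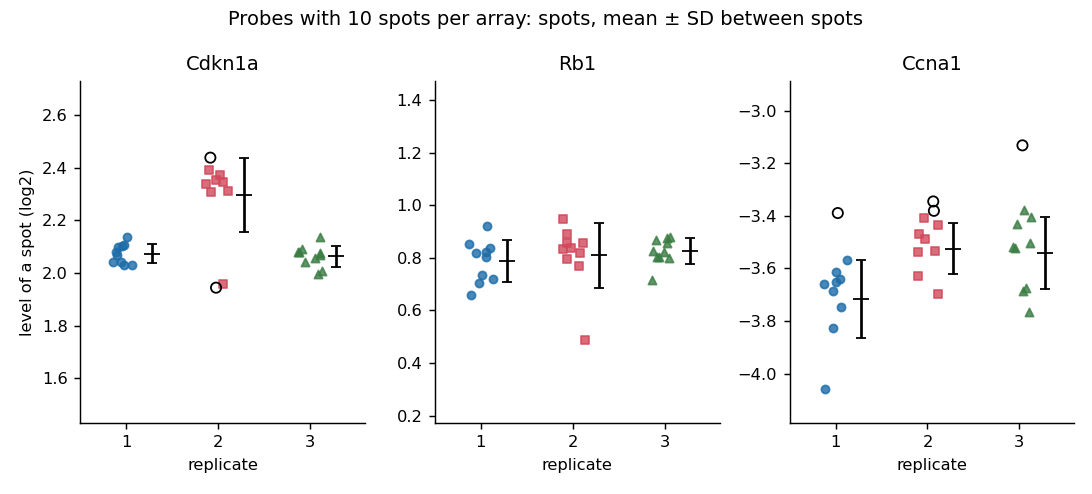
Level of every spot (y axis, log2) on replicates 1 to 3 for the Cdkn1a, Rb1 and Ccna1 probes with 10 spots per array. Open circles are spots flagged as outliers and left out, and bars show the mean ± SD between the spots used; most Cdkn1a spots of replicate 2 lie above those of the other arrays, with means of 2.07, 2.30 and 2.06.

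The INK4 members differed in how far their arrays lay apart, with an SD from 0.05 to 0.60 log2 units over 4 probes. Cdkn2a encodes p16Ink4a and, from the upstream start and another reading frame, p19Arf, which inhibits MDM2. Its probe A_55_P2008437 read 851, 1053 and 737, a level of 0.63, 1.04 and 0.49 (mean 0.72 ± 0.29, SD, n = 3). The probe A_55_P2008438 read 52.0, 94.1 and 45.3, a level of -3.40, -2.44 and -3.54 (mean -3.13 ± 0.60, SD, n = 3). On both probes replicate 2 was the highest array, replicate 3 the lowest, and replicate 2 lay beyond the software error from both others. That order held under each of the 6 ways of scaling or background correction, and neither spot lay in a marked part. A_55_P2008438 was dim, however, and the negative-control limit was 61.2 on replicate 2 against 16.7 and 14.5 on replicates 1 and 3. With normexp background correction its range was 0.62 instead of 1.10. Without replicate 2 the mean of A_55_P2008438 was -3.47. Replicate 2 also stood beyond the software error from both other arrays for Pou5f1 (higher), Dab2 (higher) and Sox2 (lower), whose spots lay outside the marked parts as well. The part of this array in the Cdkn2a and Cdkn1a results was not tested. Both probes carry the accession NM_009877, and whether either tells the p16Ink4a and p19Arf transcripts apart was not settled, since probe sequences were not used here.

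Cdkn2b (p15Ink4b) lies next to Cdkn2a on chromosome 4, with 1 annotated gene (Gm12610) and no protein-coding gene between them. Its probe A_55_P1988183 read 141, 137 and 145, a level of -1.91 ± 0.05 (SD, n = 3), the smallest SD of all member probes. The other probe, A_55_P1979526, was close to background and read 32.5, 22.1 and 20.8, a level of -4.42 ± 0.31 (SD, n = 3). Replicate 1 was the highest array there and was apart from both others beyond the software error. The range of that probe was 0.58 log2 units, but 0.09 with normexp background correction. In neither Cdkn2b probe was replicate 2 the highest array.

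**Figure D3:**
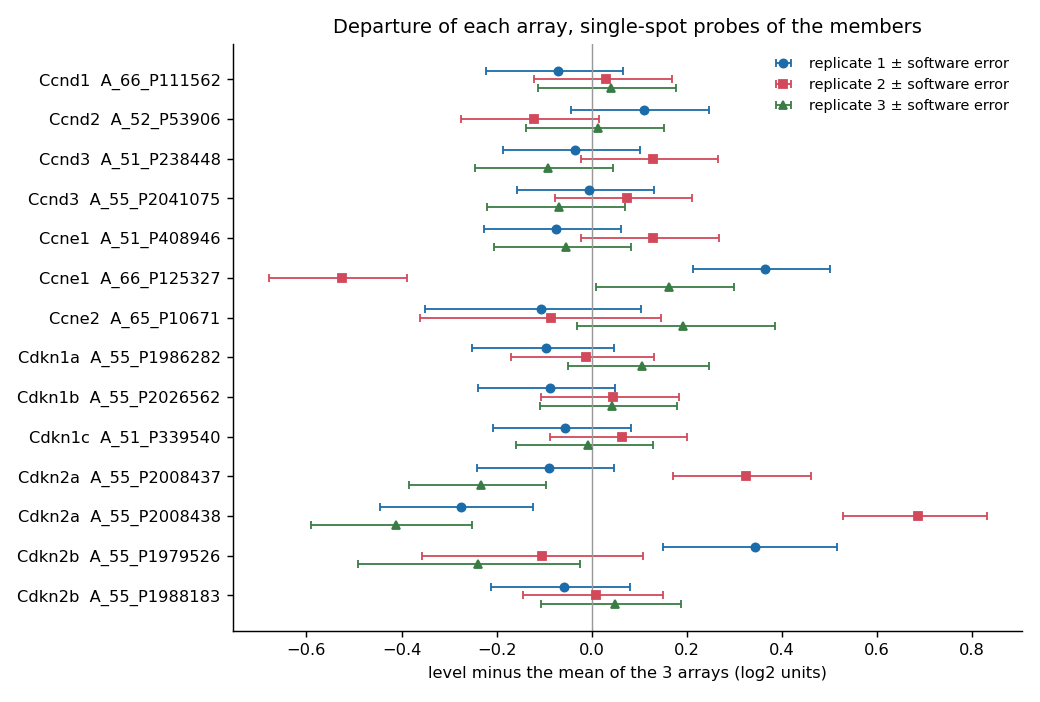
Level of each single-spot member probe on each array minus its mean over the 3 arrays (x axis, log2 units), with bars for the error given by the scanner software. Bars of at least 1 pair of arrays fail to meet for 4 of 14 probes: Ccne1 A_66_P125327, both Cdkn2a probes and Cdkn2b A_55_P1979526.

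In counts, 4 of 14 single-spot member probes had at least 1 pair of arrays apart beyond the software error, against 22.5% of all detected single-spot probes. Without replicate 2 the count of member probes was 1. Among the single-spot marker probes detected on all arrays, 7 of 23 had such a pair. That measure was chosen after the values were seen. A range of more than 1 log2 unit between arrays was found for 1 member probe, Cdkn2a A_55_P2008438 at 1.10, and for 1.85% of all detected probes. The median SD of the 15 probes was 0.115 log2 units, against 0.090 over all 33474 detected probes with an unflagged spot on each array. With the detected probes in 4 equal groups by mean level, the median SD was 0.187, 0.106, 0.071 and 0.058 from the dimmest to the brightest group, and 12 of 15 member probes exceeded the median of their own group. By role the median SD was 0.093 for D-type cyclins, 0.166 for E-type cyclins, 0.089 for CIP/KIP and 0.297 for INK4 inhibitors. Without replicate 2 these were 0.056, 0.143, 0.063 and 0.099, so the order of the roles rested on that array. The INK4 genes outside the members, Cdkn2c and Cdkn2d, had an SD of 0.022 and 0.013. Cdkn2c was dim, and its signal of 53.6 on replicate 2 lay below the negative-control limit of 61.2 there. In 9 of 15 member probes replicate 2 lay farthest from the middle array, against 41.2% of all detected probes. The pair of probes of a gene had the same highest and the same lowest array in 2 of 5 genes, Ccnd3 and Cdkn2a. The share over all genes with a pair of probes is not given here, so this count is a description only.

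**Figure D4:**
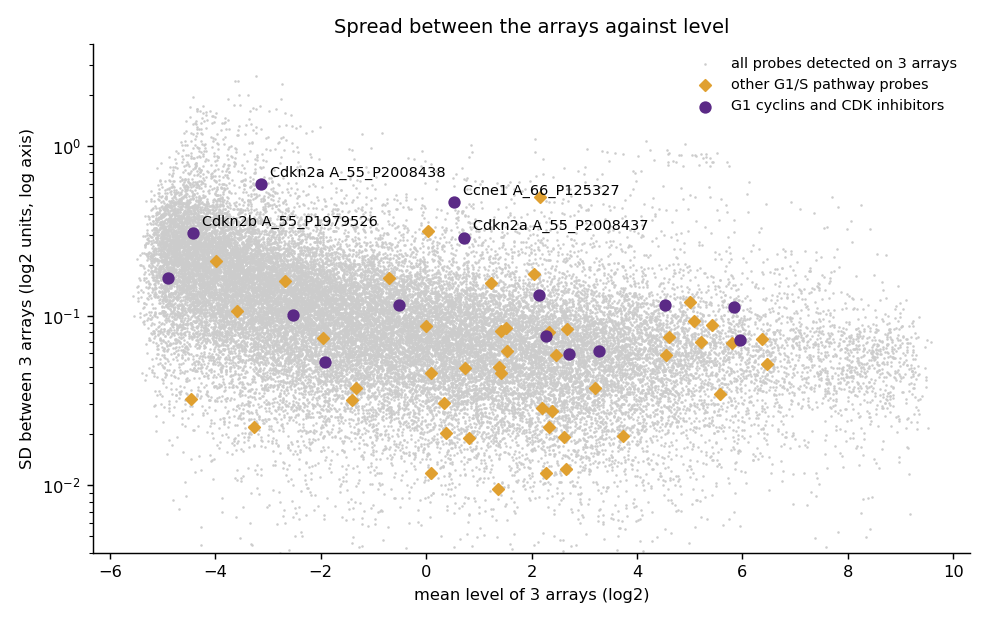
SD between the 3 arrays (y axis, log axis) against mean level (x axis, log2) for all detected probes (grey), the members (purple) and other genes of the G1/S pathway (orange). The 4 labelled members have an SD between 0.29 and 0.60, and the SD of the grey probes falls with level.

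The partners and targets of the members were measured on the same arrays. Of 36 listed genes of the G1/S pathway, 35 were on the array by name (Skp2 was not matched), and all 35 were detected on all 3 arrays, with 47 probes. Under the rule against negative controls 32 passed. Cdk6, Ccna1 and Cdkn2c, at 23.4, 44.5 and 53.6 on replicate 2, lay below the limit of 61.2 there. The median SD of the 47 probes was 0.058 log2 units (0.01 to 0.50), and no probe had a range above 1. This median was not matched for level, with which the SD falls, so it gives no comparison with the members. Among the G1 kinases, levels ran from -4.46 ± 0.03 for Cdk6 to 6.46 ± 0.05 for a Cdk4 probe. Of the remaining INK4 inhibitors, Cdkn2c (p18) was at -3.27 ± 0.02 and Cdkn2d (p19Ink4d) at 2.65 ± 0.01. Pocket proteins ran from -2.68 ± 0.16 for Rbl2 (p130) to 1.23 ± 0.16 for Rbl1 (p107), all with n = 3. The spots of these Rbl2 and Rbl1 probes on replicate 2 lay in marked parts. The levels come from different probes and give no order of abundance.

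Downstream, E2F factors ran from -1.33 ± 0.04 for an E2f7 probe to 2.67 ± 0.08 for E2f6, and the DP partners of E2F from 1.42 ± 0.05 (Tfdp2) to 2.61 ± 0.02 (Tfdp1). S and M phase cyclins ran from -3.60 ± 0.11 for Ccna1, the germline cyclin A, to 6.36 ± 0.07 for Ccnb2. The CDK-activating kinase ran from -3.99 ± 0.21 for a Cdk7 probe to 3.20 ± 0.04 for Mnat1. CDC25 phosphatases, which remove inhibitory phosphates from CDKs, ran from 0.34 ± 0.03 (Cdc25c) to 3.73 ± 0.02 (Cdc25a). Ubiquitin ligase parts ran from 0.09 ± 0.01 (Cul1) to 5.58 ± 0.03 (Skp1). In the p53 axis, upstream of Cdkn1a, levels ran from -1.41 ± 0.03 for an Mdm4 probe to 4.55 ± 0.06 for Mdm2 (SD, n = 3 throughout). The other Mdm4 probe was less even between the arrays, with an SD of 0.31, and its spot on replicate 2 lay in a marked part. A Ccnb1 probe, A_55_P1952256, was less even still, with an SD of 0.50 and signals of 2837, 1534 and 3019. Its spot on replicate 2 also lay in a marked part.

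Of these genes, Rb1 and Ccna1 also had probes with 10 spots. Rb1, the retinoblastoma protein itself, read 951, 899 and 934, and limma found no difference between the arrays at the threshold (adjusted p = 0.718). Ccna1 read 42.04, 44.49 and 45.39, with replicate 1 the lowest (limma, adjusted p = 0.0208). Its signal on replicate 2 lay below the negative-control limit of 61.2 there. The call on Ccna1 was lost with normexp background correction (adjusted p = 0.0962), without replicate 1 (0.836) and without replicate 2 (0.0940).

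**Figure D5:**
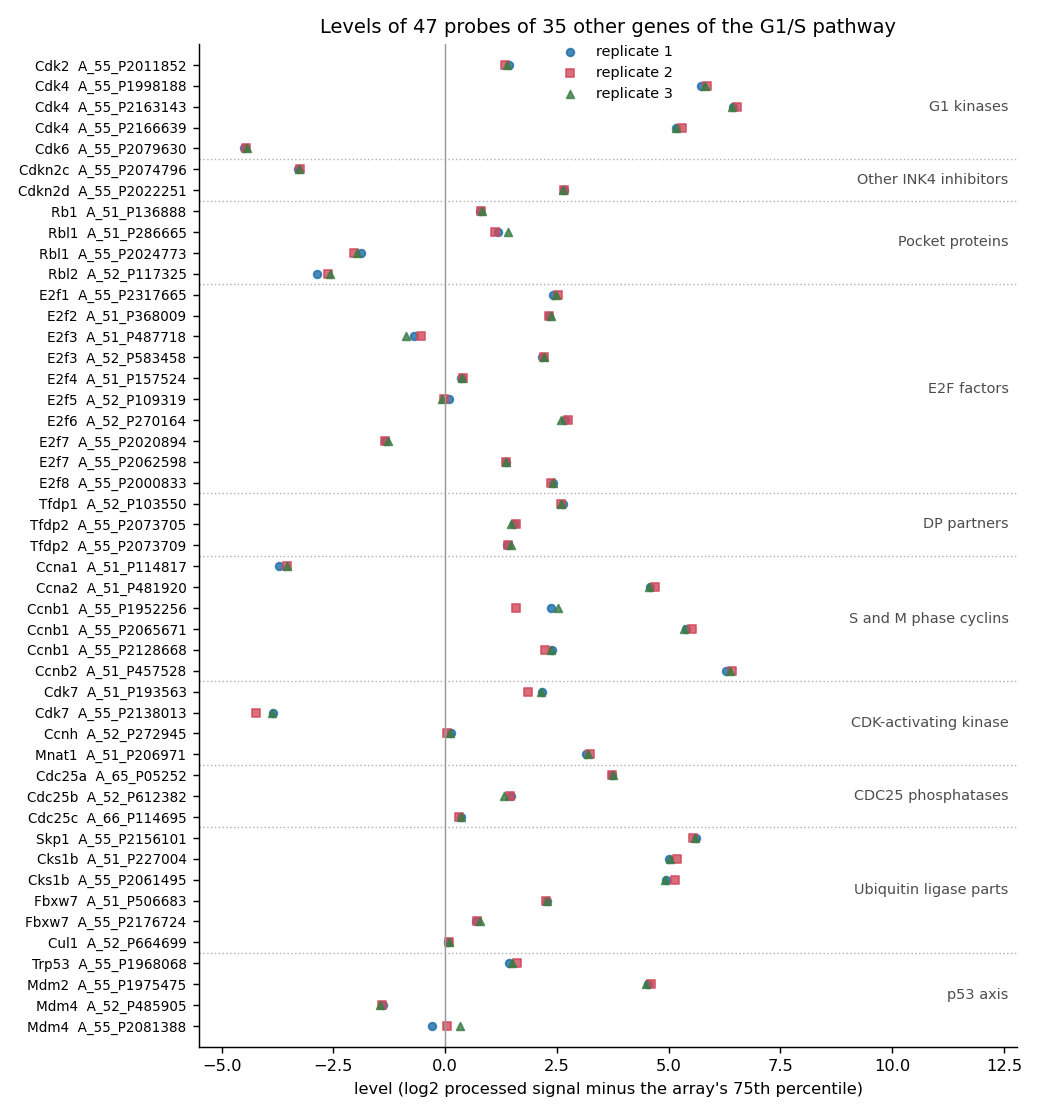
Level of 47 probes of 35 other genes of the G1/S pathway (x axis, log2) on replicates 1 to 3 (points), with dotted lines between roles. The points of most probes coincide at this scale, and none spans more than 1 log2 unit. Ccnb1 A_55_P1952256 has the widest range, 0.93, with replicate 2 the lowest and its spot there in a marked part. The other Ccnb1 probes have ranges of 0.17 and 0.15.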

How the data were processed

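Total RNA of 3 PD-treated J1 mESC samples was hybridised to Agilent arrays in 1 colour. Per the file headers and labels, the authors made the deposited spot intensities with Agilent Feature Extraction 10.7, which subtracted background, without normalization between arrays. The deposited value table holds log2 values whose normalization is not stated. Probes were named by matching accessions, without versions, to RefSeq (GRCm38.p6; 27235 probes, 48.9%). The array grid refers to mm9, and no probe coordinates are given.

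Levels were log2 processed signals averaged over spots without outlier flags, scaled to the 75th percentile of each array. A probe was detected if at least 50% of its spots were well above background. All member probes are named. Other pathway genes are named if undetected on an array, if their range exceeded 1, or as the lowest or highest of a role, and Rb1 and Ccna1 for their 10 spots. Members and lists were chosen with earlier results of these data known. Probes with 10 spots were tested between arrays, spots as observations, with limma 3.58.1 in R 4.3.3 (lmFit, eBayes, Benjamini-Hochberg at 0.05). On simulated spots of the 284 probes it recovered 94% of 100 probes shifted by 0.3 log2 units and called 2 of 184 others. Those spots were drawn without effects of array or position, so they give no rate of false calls for the real arrays. Tables used pandas 2.3.3. Alternatives were quantile and median scaling, the percentile over detected probes, normexp (offset 50), other detection rules, no filter, the deposited table, and 1 replicate left out in turn. The number of arrays limits the precision.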

Additional observations from a re-analysis of the deposited data

How the results depend on the processing

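Detection of the members held under every rule tried but 1, the signal required above the 99th percentile of the negative controls. That limit was 16.7, 61.2 and 14.5 on replicates 1, 2 and 3. Under it 13 probes and 9 genes passed, with Ccne2 and the dim Cdkn2b probe lost on replicate 2. Of the 35 other pathway genes, 32 passed. The median SD lay between 0.078 and 0.118. The count of member probes with a range above 1 was 0 with normexp, where the range of Cdkn2a A_55_P2008438 was 0.62 and that of Cdkn2b A_55_P1979526 0.09, and 0 to 1 when a replicate was left out (0 without replicate 2 and 0 without replicate 3). Member probes with arrays apart beyond the software error were 1 to 4 when a replicate was left out (1 without replicate 2). Probes with 10 spots called by limma were 23 with normexp and 28 to 86 with a replicate left out (76 without replicate 1, 28 without replicate 2). The Rb1 difference of replicate 2 from the others, 0.0029 log2 units, was -0.065 with the median of each array, and -0.016 to 0.022 with replicate 1 or 3 left out, and passed the threshold in none of these. The cause of these changes was not tested. Scaling to the median or to the percentile of detected probes moved the level of all 15 probes, since each sets another zero, and normexp moved 11. Leaving out the marked parts, the alternatives on the software error, the median SD by role without each replicate and the p53 search with 1 mismatch were chosen after seeing the data. Without the marked parts, 110 probes with 10 spots were called and 1 member probe had a range above 1. No paired analysis was possible because the arrays form a single group. Signals of Ccne2 and of Cdkn2b A_55_P1979526 were too near background to show small differences between arrays.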
